A study of Mus musculus with 12 samples.

Results

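The lysosome module described here holds 31 genes of lysosomal digestion: 8 aspartic and cysteine cathepsins, 10 other soluble hydrolases, 4 activators and lipid carriers with progranulin, 4 membrane proteins, 3 subunits of the proton pump, the transcription factor Tfeb and the autophagy receptor Sqstm1. The members were taken by symbol from the gene table of an RNA-seq experiment with 53707 genes, and all 31 were found and passed the filter on low counts. The rule names them by function and uses no measured value, but the list was chosen with earlier results of these data known. Retinas of wild-type C57Bl/6J mice at 28 days of age were freed of sclera and retinal pigment epithelium and cultured as explants for 48 hours in Neurobasal-A medium with 5 mM or 25 mM glucose, a comparison that asks how glucose supply alters gene expression. Each concentration had 3 biological replicates, and each of these had 2 technical replicates, the first in batch 1 and the second in batch 2, so that 12 libraries of total RNA were read. Both groups went through dissection and culture, and retina taken straight from the animal was not part of this comparison. The sex of the mice, and whether a replicate held retinas of more than 1 animal, were not given in the sources used here, so the p-values below measure the spread between these samples.

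Lysosomes are acidic compartments in which hydrolases break down proteins, lipids, glycans and worn-out organelles. The proton pump keeps the lumen acidic, membrane proteins such as Lamp1 and Lamp2 shield the rim, and saposins and Npc2 present lipids to the enzymes and carriers. TFEB is the factor that switches many of these genes on together: when nutrients are plentiful the kinase mTORC1 at the lysosome surface holds it in the cytoplasm, and during starvation it enters the nucleus and binds a short palindrome built on the E-box, the CLEAR element. In the retina, lysosomes of the pigment epithelium digest shed photoreceptor outer segments, microglia are rich in cathepsins, and inherited loss of Cln3, Ppt1, Tpp1, Ctsd or Grn causes ceroid storage disease, in many cases with loss of vision.

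Promoter sequences are shown here because TFEB is known for its binding motif, and they let the motif be set beside the values that follow. RefSeq promoter windows of the GRCm38.p6 build, from 250 bases before to 50 after each gene start, were at hand for 27 of the 31 members and not for Ctsb, Ctsh, Npc1 and Atp6v1h. Each motif was searched on both strands. The E-box CACGTG stood in the windows of 12 of the 27 members (44.4%), against 8.09% of all 27025 genes with a window and 10.6% of the 13865 of them that were tested below. The longer palindrome TCACGTGA, which contains the E-box, stood in 7 members (25.9%), against 1.12% of all genes and 1.78% of tested genes. The related letters TCATGTG, which are not contained in either, stood in 6 members, Ctsa, Ctss, Gla, Grn, Tpp1 and Ppt1 (22.2%), against 4.31% of all genes and 3.13% of tested genes. The 7 palindromes below are given 5′ to 3′ on the strand of the gene, 1 for each member that has the motif, with the motif in capitals. The site in Ctsd lay at chr7:142387903-142387942 (minus strand), in Ctsa at chr2:164833744-164833783 (plus strand), in Gla at chrX:134601177-134601216 (minus strand), in Cln3 at chr7:126583335-126583374 (minus strand), in Mcoln1 at chr8:3500457-3500496 (plus strand), in Atp6v0d1 at chr8:105566045-105566084 (minus strand) and in Atp6v1a at chr16:44139368-44139407 (minus strand).
Ctsd: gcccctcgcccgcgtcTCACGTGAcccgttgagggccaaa
Ctsa: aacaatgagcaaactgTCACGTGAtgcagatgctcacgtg
Gla: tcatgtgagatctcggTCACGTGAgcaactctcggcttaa
Cln3: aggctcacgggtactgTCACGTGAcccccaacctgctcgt
Mcoln1: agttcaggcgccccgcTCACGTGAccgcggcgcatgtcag
Atp6v0d1: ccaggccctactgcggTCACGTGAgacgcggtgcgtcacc
Atp6v1a: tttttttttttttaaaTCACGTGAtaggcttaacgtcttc

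Ctsa and Gla held the palindrome at 2 places each. The E-box inside the palindrome of Atp6v0d1 began 3 bases before the RefSeq start used for its window. The E-box without the palindrome is shown for Lamp1, which had 4 E-boxes, for Glb1, the member with the largest difference among those with an E-box and no palindrome, and for Ctsf, whose values lay in the other direction from the rest. The Lamp1 site lay at chr8:13159099-13159138, the Glb1 site at chr9:114401013-114401052 and the Ctsf site at chr19:4855069-4855108, all on the plus strand.
Lamp1: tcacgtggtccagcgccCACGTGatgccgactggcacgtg
Glb1: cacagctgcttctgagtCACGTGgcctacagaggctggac
Ctsf: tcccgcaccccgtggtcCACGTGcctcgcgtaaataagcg

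Ctsl and Gaa also had 1 E-box each. For the 12 members with an E-box the median log2 fold change was -0.58 (25 mM over 5 mM, range -1.42 to 0.63), the 7 with the palindrome -0.57 (range -1.42 to -0.20), and the 15 without an E-box in this window -0.84 (range -1.64 to -0.20). These medians are a description of few genes, and a match of letters is not a measured binding site.

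Library totals lay between 14815285 and 36692484 estimated counts, and technical replicates were summed to 43002302 to 60098862 counts for a replicate at 5 mM and 37944826 to 42451809 at 25 mM. Members drew between 30 counts (Tfeb) and 120974 counts (Ctsd) in a replicate. Levels are given as CPM, the count of a gene relative to the size of its library after TMM scaling, and between genes as CPM per kilobase of exon. Rod markers were well represented in every replicate, with summed levels of 3146 to 8990 CPM over 12 genes, while Rpe65, which defines the pigment epithelium, had 0 to 4 counts. The sample 5 mM replicate 1 stood apart from the others at 5 mM, with the largest total and with 3146 CPM of rod markers against 5666 and 5078 CPM, and the calls and medians are therefore also given without that replicate.

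Nearly all members had lower values at 25 mM than at 5 mM glucose, and none of the differences passed the threshold of the test. In a fit over 21061 genes (edgeR quasi-likelihood test, Benjamini-Hochberg adjusted p, written FDR), 30 of the 31 members had a log2 fold change below 0 and 1, Ctsf, above 0. The median over members was -0.59 and that over all genes tested -0.01, with 50.7% of all genes below 0. No member reached an FDR under 0.05. The lowest was 0.0537, 10 members lay under 0.10, 9 between 0.10 and 0.20 and 12 at 0.20 or more. Of all genes, 0.513% passed the FDR of 0.05 as lower and 1.47% as higher at 25 mM. At an unadjusted p under 0.05, 18 members were lower and 1 was higher (edgeR), where 15.5% of all genes were lower and 13.2% higher. DESeq2, run on the same samples, called 13 members lower and Ctsf higher at an FDR under 0.05, and 9.54% of all genes lower and 7.03% higher. In 14 members every replicate at 25 mM lay below every replicate at 5 mM, which was so for 15.8% of all genes, and in Ctsf all 3 samples at 25 mM exceeded all 3 at 5 mM, as in 16.0% of all genes. The other 16 members had overlapping replicates.

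**Figure D1:**
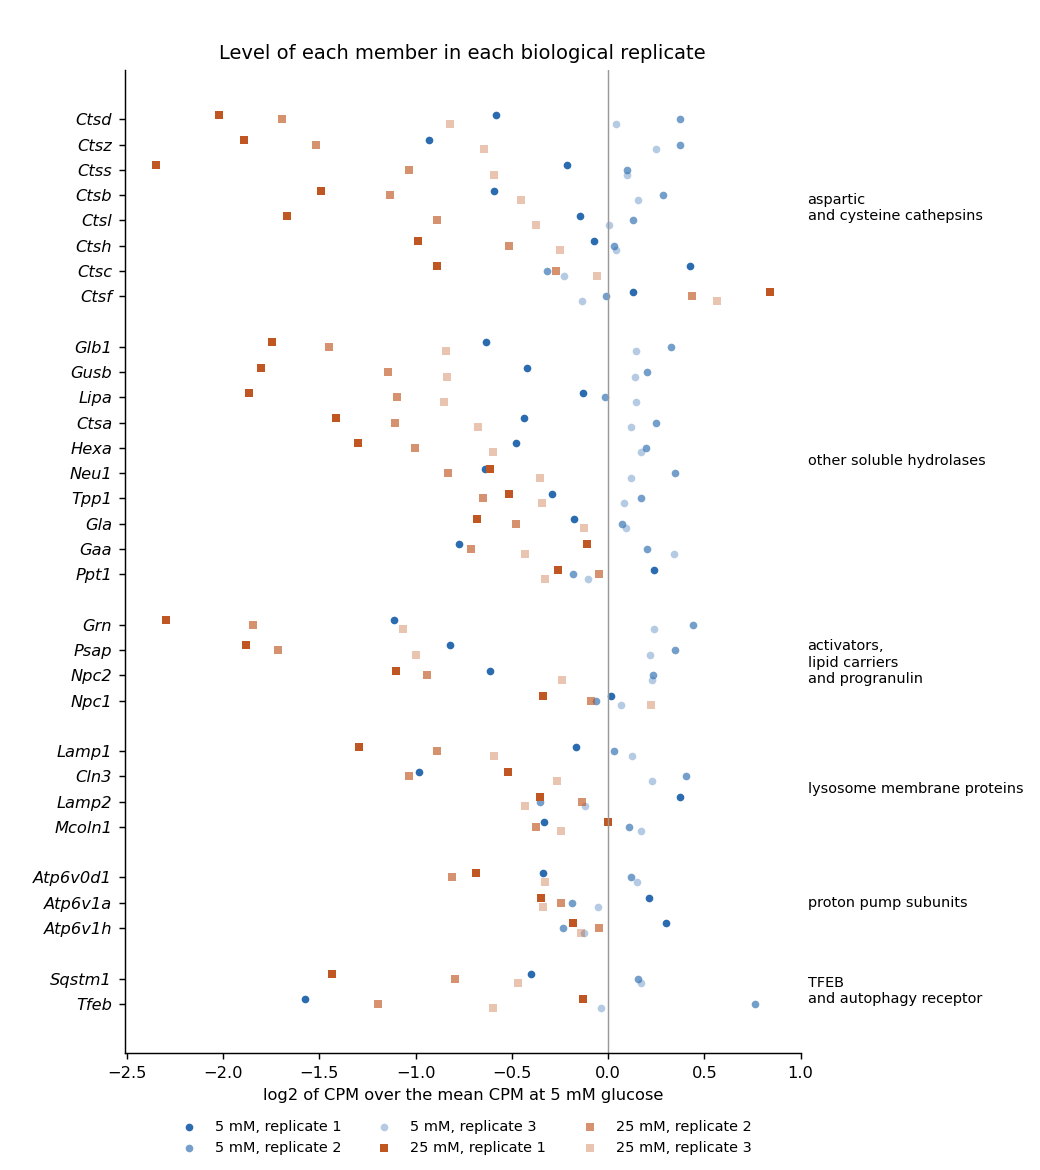
Level of each of the 31 members in each biological replicate, as the log2 of its CPM over the mean CPM of that gene at 5 mM glucose (circles 5 mM, squares 25 mM, shade by replicate), grouped by role. In 14 members all squares lie to the left of all circles and in Ctsf to the right, and replicate 1 at 5 mM is often the circle nearest to the squares.

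Summed over members, the level was 8062, 11345 and 10548 CPM in 5 mM replicates 1, 2 and 3 and 4191, 5223 and 6990.0 CPM in 25 mM replicates 1, 2 and 3. The mean sum of 3 replicates was 9985 CPM with an SD of 1712 at 5 mM and 5468 CPM with an SD of 1416 at 25 mM, and the groups did not overlap. Ctsd and Ctsb alone held 35.4% to 47.6% of the sum at 5 mM and 30.9% to 39.8% at 25 mM. Without them the sums still did not overlap, at 5210 to 5950 CPM against 2896 to 4205 CPM. In the 14 members without overlap the replicates kept a similar order: 5 mM replicate 1 was the lowest at 5 mM in 13, 25 mM replicate 1 the lowest at 25 mM in 13, and 25 mM replicate 3 the highest at 25 mM in 13. Of all 31 members, 5 mM replicate 1 was the highest at 5 mM in 6. The 2 technical replicates behind a value could differ widely. In 25 mM replicate 2, Ctsd had 256 CPM in batch 1 and 911 CPM in batch 2, and Sqstm1 86.1 and 406 CPM. Lamp2 had 477 and 470 CPM there, so not every member had such a gap. The levels, SDs and orders of replicates given here average over these gaps.

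The aspartic and cysteine cathepsins, the main proteases of the lysosome, were the most abundant group, and 7 of the 8 were lower at 25 mM. Ctsd (ENSMUSG00000007891, chromosome 7, 142375911 to 142388038, GRCm38), the aspartic protease that starts the breakdown of many proteins, had 1409, 2738 and 2173 CPM in 5 mM replicates 1 to 3 and 519, 652 and 1194 CPM in 25 mM replicates 1 to 3. All replicates at 25 mM lay below those at 5 mM, and 25 mM replicate 3 and 5 mM replicate 1 came nearest to each other. Its mean level was 2.67-fold lower at 25 mM, with a log2 fold change of -1.42 (standard error 0.37, edgeR FDR 0.0714), -2.04 in batch 1 and -0.94 in batch 2. Per kilobase, Ctsd had the highest level of all members at 5 mM, 896 ± 284 CPM per kilobase (SD, n = 3). The exons of Ctsd overlap those of Gm49369 on the same strand over 808 bases, so reads there could have been given to either gene.

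Ctsf (ENSMUSG00000083282, chromosome 19, 4855130 to 4860918), a cysteine protease, was the exception. It had 26.1, 23.7 and 21.8 CPM in 5 mM replicates 1 to 3 and 42.8, 32.4 and 35.4 CPM in 25 mM replicates 1 to 3, with no overlap. Its log2 fold change was 0.63 (standard error 0.19, edgeR FDR 0.0878), 1.13 in batch 1 and 0.19 in batch 2. In the transcript table, 32.5% to 55.1% of its counts fell on transcripts annotated as retained introns, and its coding transcripts alone gave a log2 ratio of mean levels of 0.36 (scaled by library totals, with no test).

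The other cathepsins had log2 fold changes from -1.25 to -0.36. They were Ctsz (-1.25), a carboxypeptidase, Ctss (-1.15), which trims the invariant chain of MHC class II in antigen-presenting cells, Ctsb (-0.96) and Ctsl (-0.89), endopeptidases of broad range, Ctsh (-0.55), an aminopeptidase, and Ctsc (-0.36), which removes dipeptides and activates serine proteases of immune cells. Replicates did not overlap in Ctss, Ctsl and Ctsh, and did in Ctsz, Ctsb and Ctsc. FDRs lay between 0.101 (Ctsz) and 0.401 (Ctsc) in edgeR. Ctss showed the widest gap between batches in this group, with -2.18 in batch 1 and -0.39 in batch 2. Exons of Ctsb share 774 bases with Fdft1 and those of Ctsl 1742 bases with Gm47123, in both cases on the opposite strand.

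All 10 other soluble hydrolases, which act on lipids, glycans and peptides, had a log2 fold change below 0, with a median of -0.76. In 6 of them every replicate at 25 mM lay below every replicate at 5 mM, as in 15.8% of all genes. Lipa (ENSMUSG00000024781, chromosome 19, 34492318 to 34527474), the acid lipase that frees cholesterol and fatty acids from stored esters, had 133, 143 and 160.1 CPM in 5 mM replicates 1 to 3 and 39.8, 67.7 and 80.4 CPM in 25 mM replicates 1 to 3. With technical replicates summed, the highest replicate at 25 mM lay well under the lowest at 5 mM. Lipa was 2.32-fold lower at 25 mM, with a log2 fold change of -1.21 (standard error 0.26, edgeR FDR 0.0537), the lowest FDR of the module. It had -1.91 in batch 1 and -0.59 in batch 2.

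Gusb (ENSMUSG00000025534, chromosome 5, 129989011 to 130003049), the β-glucuronidase that degrades glycosaminoglycans, had 43.8, 67.5 and 64.6 CPM in 5 mM replicates 1 to 3 and 16.8, 26.6 and 32.9 CPM in 25 mM replicates 1 to 3. Here too the groups did not overlap, and 5 mM replicate 1 was the lowest of its group. The level was 2.31-fold lower at 25 mM, with a log2 fold change of -1.21 (standard error 0.28, edgeR FDR 0.0622).

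Among the remaining soluble hydrolases, Glb1 (-1.30), the β-galactosidase, Ctsa (-1.04), the carboxypeptidase that protects Glb1 and Neu1 in a complex, Hexa (-0.93), a subunit of β-hexosaminidase, and Tpp1 (-0.50), a tripeptidyl peptidase, also had no overlap between replicates. Their edgeR FDRs were 0.0709, 0.0653, 0.0736 and 0.126. Neu1 (-0.59), the sialidase, Gla (-0.41), α-galactosidase A, Gaa (-0.40), which degrades glycogen, and Ppt1 (-0.20), which removes palmitate from proteins, had overlapping replicates and edgeR FDRs of 0.200 to 0.466. Exons of Glb1 share 165 bases with Tmppe on the same strand. On the opposite strand, those of Ctsa overlap Neurl2 and Pltp, and those of Hexa overlap Tmem202.

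The activators and lipid carriers held both the largest and the smallest difference of the module. Grn (ENSMUSG00000034708, chromosome 11, 102430315 to 102437048) encodes progranulin, which is cut to granulins in the lysosome and is abundant in microglia. It had 40.3, 118 and 103 CPM in 5 mM replicates 1 to 3 and 17.8, 24.3 and 41.7 CPM in 25 mM replicates 1 to 3. The groups overlapped, since 25 mM replicate 3 lay just above 5 mM replicate 1. The mean was 3.13-fold lower at 25 mM, with a log2 fold change of -1.64 (standard error 0.44, edgeR FDR 0.0735), and without 5 mM replicate 1 the value was -1.99 (edgeR FDR 0.0122).

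Psap (ENSMUSG00000004207, chromosome 10, 60277627 to 60302597), the precursor of the saposins that present sphingolipids to hydrolases, had 317, 712 and 652 CPM in 5 mM replicates 1 to 3 and 152, 171 and 281 CPM in 25 mM replicates 1 to 3. The groups did not overlap, and 5 mM replicate 1 again lay nearest to the samples at 25 mM. Psap was 2.79-fold lower at 25 mM, with a log2 fold change of -1.48 (standard error 0.35, edgeR FDR 0.0644). Npc2, the soluble carrier that takes cholesterol out of the lumen, had a log2 fold change of -0.71 (edgeR FDR 0.165), and Npc1, the membrane protein that receives it, -0.06 (edgeR FDR 0.854). The RNA levels of Npc1 overlapped, at 101 to 111 CPM at 5 mM and 83.9 to 124 CPM at 25 mM. Whether the fold changes of Npc1 and Npc2 differ from each other was not tested.

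The 4 lysosome membrane proteins had a median of -0.44, with the largest difference in Lamp1. Lamp1 (ENSMUSG00000031447, chromosome 8, 13159161 to 13175338), a heavily glycosylated protein of the limiting membrane, had 394, 451 and 482 CPM in 5 mM replicates 1 to 3 and 180.0, 239 and 293 CPM in 25 mM replicates 1 to 3. No replicates overlapped. The level was 1.86-fold lower at 25 mM, with a log2 fold change of -0.90 (standard error 0.21, edgeR FDR 0.0644), -1.49 in batch 1 and -0.39 in batch 2.

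Cln3 (ENSMUSG00000030720, chromosome 7, 126571207 to 126585817), the membrane protein lost in juvenile Batten disease, had 9.18, 23.9 and 21.2 CPM in 5 mM replicates 1 to 3 and 12.6, 8.84 and 15.1 CPM in 25 mM replicates 1 to 3. The groups overlapped because 5 mM replicate 1 lay as low as the samples at 25 mM. The log2 fold change was -0.57 (standard error 0.38, edgeR FDR 0.336), and without that replicate -0.89 (edgeR FDR 0.0385). Exons of Cln3 share 442 bases with Apobr on the opposite strand. Lamp2, which also serves chaperone-mediated autophagy, had -0.30, and Mcoln1, the calcium channel of the lysosome, -0.20, with overlapping replicates and edgeR FDRs of 0.390 and 0.524. Lamp2 counts fell mostly on the transcript Lamp2-202, at 65.9% to 78.3% at 5 mM and 70.6% to 77.3% at 25 mM, and Lamp2-201 held 16.1% to 27.6% and 12.2% to 20.9%, so its transcripts had overlapping shares in both conditions.

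The 3 proton pump subunits had log2 fold changes of -0.59 to -0.12. Atp6v0d1 (ENSMUSG00000013160, chromosome 8, 105524465 to 105566047), a subunit of the membrane sector, had 101, 139 and 142 CPM in 5 mM replicates 1 to 3 and 79.5, 72.9 and 102 CPM in 25 mM replicates 1 to 3. The groups touched, with 25 mM replicate 3 just above 5 mM replicate 1. The log2 fold change was -0.59 (standard error 0.20, edgeR FDR 0.113), and it was similar in both batches, -0.68 and -0.55. Atp6v1a (ENSMUSG00000052459, chromosome 16, 44085402 to 44139705), the catalytic subunit, had 619.5, 469 and 515 CPM in 5 mM replicates 1 to 3 and 419, 451 and 422 CPM in 25 mM replicates 1 to 3. These did not overlap, and here 5 mM replicate 1 was the highest of all samples. Its log2 fold change was -0.31 (standard error 0.18, edgeR FDR 0.271), -0.31 in batch 1 and -0.32 in batch 2. Atp6v1h, a regulatory subunit, had -0.12 (edgeR FDR 0.684).

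Sqstm1 (ENSMUSG00000015837, chromosome 11, 50199366 to 50210827) encodes p62, which carries ubiquitinated cargo into autophagosomes and is a known target of TFEB. It had 368, 541 and 548 CPM in 5 mM replicates 1 to 3 and 180.1, 280.2 and 352 CPM in 25 mM replicates 1 to 3. No replicates overlapped, with a narrow margin between 25 mM replicate 3 and 5 mM replicate 1. The log2 fold change was -0.84 (standard error 0.28, edgeR FDR 0.103), and exons of Sqstm1 share 580 bases with Mrnip on the opposite strand. Tfeb itself (ENSMUSG00000023990, chromosome 17, 47737030 to 47792419) was low in every sample. It had 0.632, 3.19 and 1.83 CPM in 5 mM replicates 1 to 3 and 1.72, 0.821 and 1.24 CPM in 25 mM replicates 1 to 3, on 30 to 141 counts. Replicates overlapped widely and no difference was detectable at this depth, with a log2 fold change of -0.57 (standard error 0.56, edgeR FDR 0.512). The transcript Tfeb-204, chosen after its values were seen, held 23.9, 62.6 and 26.6 estimated counts at 5 mM and under 0.1 estimated counts in all 3 replicates at 25 mM. All matched Tfeb transcripts together held 46, 149 and 80 counts at 5 mM and 39, 32 and 53 at 25 mM. The share on Tfeb-201 was 11.1% to 20.1% at 5 mM and 24.8% to 36.2% at 25 mM. How often other transcripts fell to so few counts was not examined. TFEB is controlled mainly by where the protein is in the cell, which RNA does not show.

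Per length, the members spanned more than 3 orders of magnitude. At 5 mM glucose, Ctsd (896 CPM per kilobase) was followed by Ctsb (360.0 ± 107), Psap (204 ± 77.5), Lamp1 (165 ± 16.9), Ctsl (149 ± 14.1) and Sqstm1 (145 ± 30.4), and Tfeb (0.332 ± 0.226) stood last after Cln3 (3.13 ± 1.36), all as CPM per kilobase ± SD with n = 3. The neighbours from Psap to Sqstm1 differed by less than the spread between replicates. At 25 mM glucose Ctsd (335 ± 152) and Ctsb (185 ± 69.8) still led, and Lamp1 (88.7 ± 21.1), Sqstm1 (80.6 ± 25.7), Ctsl (80.5 ± 33.9) and Psap (73.3 ± 25.4) followed within each other's spread.

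Most values lay further from 0 in batch 1 than in batch 2. The median log2 fold change of the members was -0.93 in batch 1 alone and -0.52 in batch 2 alone, and 26 of the 31 were lower at 25 mM in both. In 24 members the difference was larger in size in batch 1. In batch 1 alone, 13 members passed an FDR of 0.05 as lower and Ctsf as higher (edgeR), where 10.1% of all genes tested passed as lower and 7.16% as higher. In batch 2 alone no member and no gene passed (edgeR), and 6 members had an unadjusted p under 0.05, as had 11.7% of all genes. A term for a difference between batches in the effect of glucose was fitted to the 12 libraries, blocked by biological replicate. It reached an FDR under 0.05 in no member and in no gene (edgeR, lowest member FDR 0.215). It had an unadjusted p under 0.05 in 8 members, and 16.3% of all genes had such a p. The proton pump subunits, Tpp1 and Neu1 had close values in both batches, whereas that term was 1.64, 1.32 and 1.25 on the log2 scale for Ctss, Grn and Lipa.

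**Figure D2:**
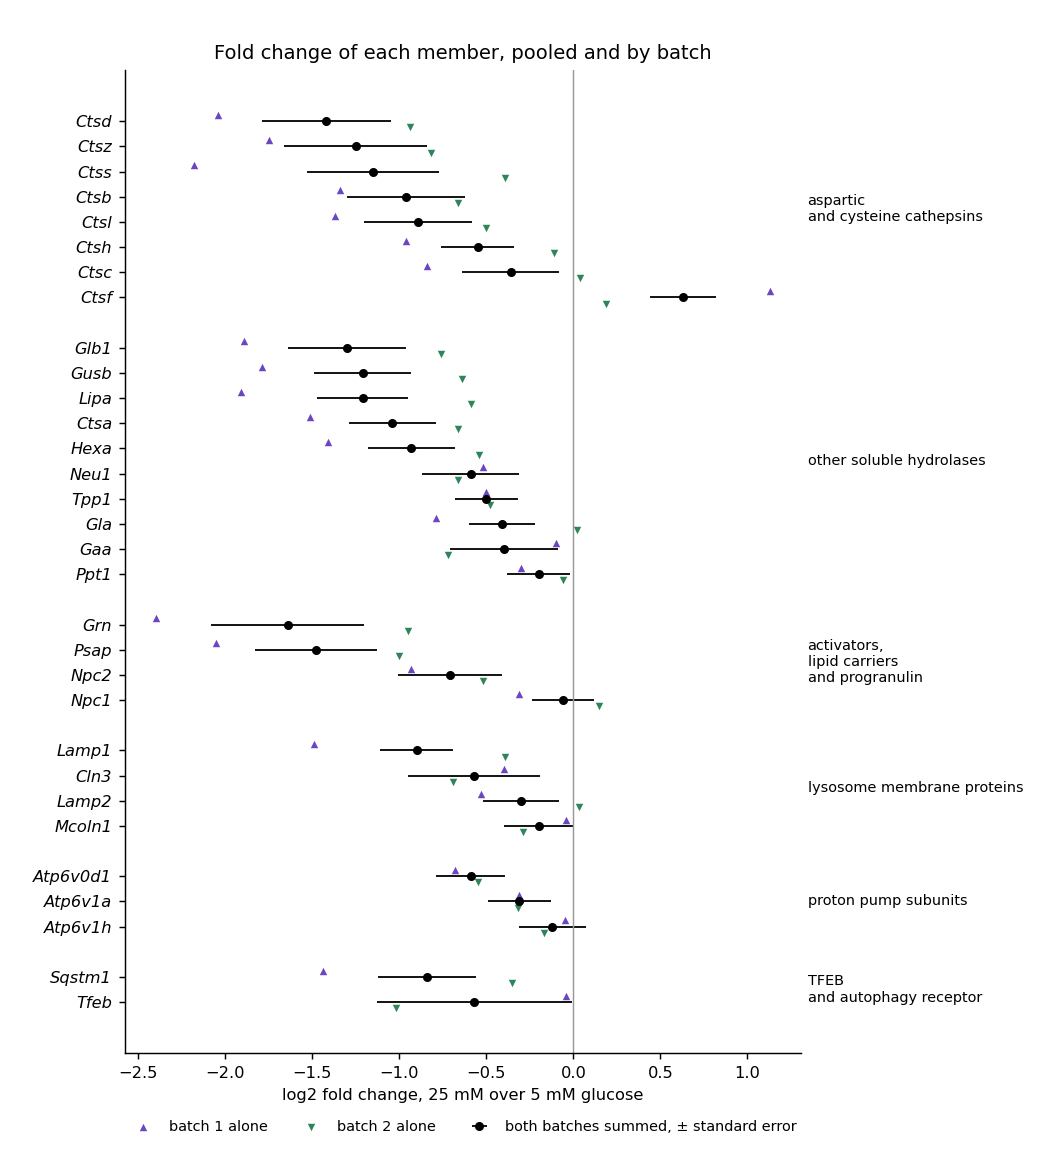
Log2 fold change (25 mM over 5 mM glucose) of each member with both batches summed (black points, bars ± standard error) and in batch 1 (upward triangles) and batch 2 (downward triangles) alone. Triangles of batch 1 lie further from 0 in 24 of the 31 members, and the 3 proton pump subunits have both triangles close together.

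Which members passed the threshold changed with the samples kept, and also with the method, filter and batch, as given in the last section. Without 5 mM replicate 1, 17 members passed an FDR of 0.05 as lower at 25 mM and Ctsf passed as higher (edgeR), where 14.9% of all genes passed as lower and 11.7% as higher. The 17 were Ctsa, Ctsb, Ctsd, Ctsz, Lamp1, Hexa, Glb1, Gusb, Neu1, Npc2, Psap, Lipa, Grn, Tpp1, Cln3, Atp6v0d1 and Sqstm1, and the median over all members was then -0.94. Not every member lay further from 0 without it: Ctsc was at -0.09, Lamp2 at -0.07, Ppt1 at -0.06, Atp6v1a at -0.19 and Atp6v1h at 0.06. Without 25 mM replicate 3, Ctsd and Lipa passed as lower (edgeR), where 0.946% of all genes passed as lower and 1.32% as higher. Leaving out any of the other 4 replicates gave no member and no gene, with 12 to 14 members at an unadjusted p under 0.05 (edgeR). Of all genes, 18.6%, 17.6%, 18.8% and 17.6% had such a p without 5 mM replicate 2, 5 mM replicate 3, 25 mM replicate 1 and 25 mM replicate 2.

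Other genes of the pathway came from lists written from general knowledge, also with earlier results of these data known. Of the 114 tested, 95 had log2 fold changes below 0 and 19 above 0. Their median was -0.34, and none passed the FDR of 0.05 (edgeR). At an unadjusted p under 0.05 (edgeR), 29 of them were lower and 3 higher, against 15.5% and 13.2% of all genes. Without 5 mM replicate 1, 36 passed the FDR of 0.05 as lower and 4 as higher (edgeR), against the 14.9% and 11.7% of all genes given above, and the median was -0.41. Among 26 other lysosomal hydrolases the median log2 fold change was -0.52. At that p (edgeR) 9 were lower and none higher, against the same 15.5% and 13.2% of all genes. Arsb, a sulfatase, had 47.4 to 48.7 CPM at 5 mM and 26.6 to 30.5 CPM at 25 mM, a log2 fold change of -0.75 (edgeR FDR 0.0526), and Ctsk, a collagen-degrading cathepsin, had -1.33 (edgeR FDR 0.0609). The replicates of Arsb lay close together within each condition, and 5 mM replicate 1 did not stand apart there.

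Among 20 other membrane and accessory proteins the median was -0.28 and 5 lay above 0, with Glmp, which stabilises a lysosomal transporter, at -1.44 (edgeR FDR 0.0941) and the ganglioside activator Gm2a at -0.56 (edgeR FDR 0.0971). The 16 other proton pump subunits that were tested were all below 0, with a median of -0.26. Atp6v0c, which forms the rotor ring, had -0.89 (edgeR FDR 0.0971) and Atp6v0e -0.64 (edgeR FDR 0.105). The kidney and lung subunit Atp6v1c2 had 0 to 6 counts and was not tested. The 9 genes that tag hydrolases with mannose 6-phosphate and sort them had a median of -0.32, with the receptors M6pr at -0.45 (edgeR FDR 0.143) and Igf2r at -0.54 (edgeR FDR 0.195).

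The TFEB family and its control by mTORC1 had a median of -0.26 over 20 genes, of which 6 lay above 0. Ppargc1a, a coactivator of mitochondrial genes that TFEB induces, had 20.2 to 32.3 CPM at 5 mM and 39.2 to 62.1 CPM at 25 mM, with no overlap and a log2 fold change of 0.95 (edgeR FDR 0.0711), in the direction away from the members. Tfe3, the close relative of Tfeb, had 30.1, 57.7 and 48.5 CPM in 5 mM replicates 1 to 3 and 21.6, 19.6 and 30.7 CPM in 25 mM replicates 1 to 3, a log2 fold change of -0.92 (edgeR FDR 0.0918). Autophagosome genes had a median of -0.21 over 23 genes, of which 6 lay above 0, with Becn1, which starts the phagophore, at -0.66 (edgeR FDR 0.0815) and Map1lc3b, which coats it, at -0.88 (edgeR FDR 0.140).

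**Figure D3:**
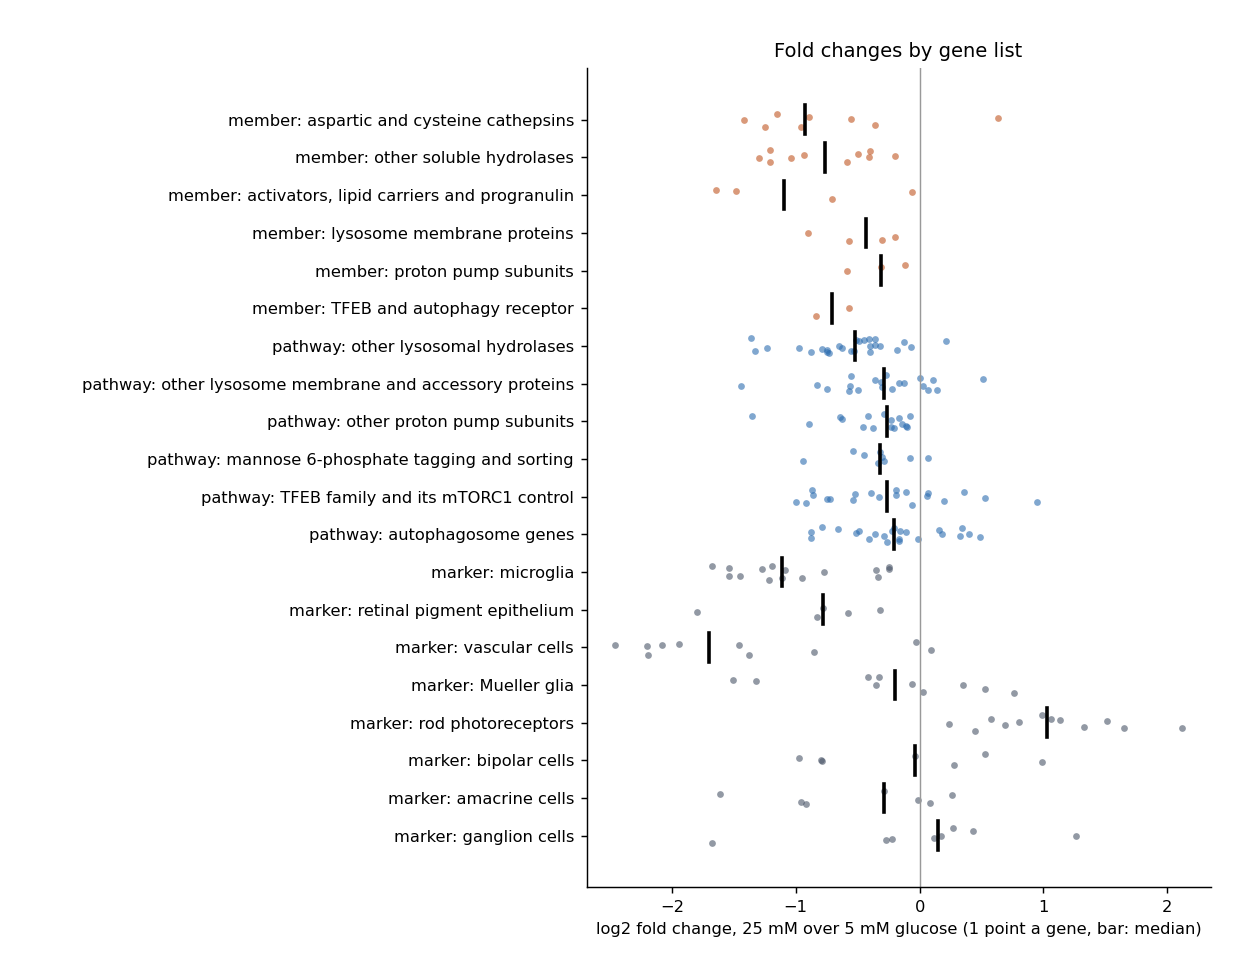
Log2 fold change (25 mM over 5 mM glucose) of each tested gene (points) by list, with the median of each list (black bars), for the member groups, the other pathway lists and the cell type markers. Medians of the 6 member groups lie between -1.09 and -0.31, those of microglia and vascular markers at -1.11 and -1.70, and that of rod markers at 1.02.

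Most microglia and vascular markers also had lower values at 25 mM, and rod markers had higher ones. Of 15 microglia markers, all 15 had a log2 fold change below 0, with a median of -1.11 and none past the FDR of 0.05. At an unadjusted p under 0.05 (edgeR) 10 were lower, against 15.5% of all genes. Without 5 mM replicate 1, 9 passed the FDR of 0.05 as lower (edgeR), against 14.9% of all genes, and the median of these markers was -1.41. Their summed level was 238, 445 and 392 CPM in 5 mM replicates 1 to 3 and 105, 157 and 248 CPM in 25 mM replicates 1 to 3. The groups overlapped. Replicate 1 was lowest and replicate 2 highest at 5 mM, and replicate 1 was lowest and replicate 3 highest at 25 mM. The sums of all members and of Mueller glia markers had this order, as had Psap, Ctsd and Grn. The sum of vascular markers, Lipa and Lamp1 had replicate 3 highest at 5 mM. How many of all genes had either order was not counted, and what the order reflects was not tested. The defining markers were present in every sample, for example Trem2 at 9.90 to 29.5 CPM at 5 mM and 4.15 to 10.2 CPM at 25 mM, and Tmem119 was low at 0.278 to 1.96 CPM.

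Vascular markers had a median of -1.70 over 10 genes, with 9 below 0, and summed levels of 1224 to 2074 CPM at 5 mM and 620 to 1106 CPM at 25 mM that did not overlap. None of them passed the FDR of 0.05 on all samples. Without 5 mM replicate 1, 7 passed as lower (edgeR), against 14.9% of all genes, and the median of the list was -1.95. Of 9 pigment epithelium markers, 4 had too few counts to test, among them Rpe65, and the summed level was 5.11 to 8.08 CPM at 5 mM and 2.85 to 4.41 CPM at 25 mM. Mueller glia markers were mixed, with a median of -0.19 over 10 genes and 6 below 0, and summed levels of 3864 to 4938 CPM against 2579 to 3775 CPM. Of 12 rod markers all were above 0, with a median of 1.02. Among them 5 (Pde6b, Cnga1, Nrl, Nr2e3 and Pde6a) rose at an FDR under 0.05 (edgeR), where 1.47% of all genes passed as higher. Bipolar, amacrine and ganglion cell markers had medians of -0.04, -0.29 and 0.15 over 7, 7 and 8 genes. The part of these cell types in the lower values of the members was not tested, and in bulk tissue fewer cells of a type and less RNA per cell cannot be told apart.

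**Figure D4:**
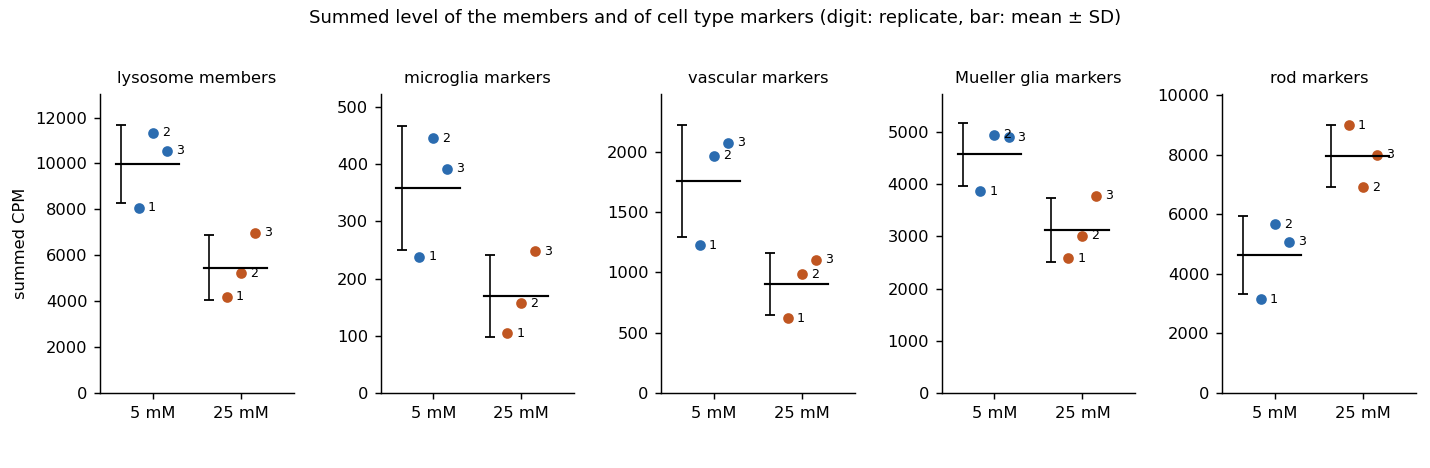
Summed CPM of the 31 members and of 4 marker lists in each biological replicate (points, digit: replicate number) with the mean ± SD (bars, n = 3) at 5 mM and 25 mM glucose. Members, microglia, vascular and Mueller glia sums are lower at 25 mM, with overlap for microglia only, and rod sums are higher at 25 mM, from 3146 to 5666 CPM to 6897 to 8990 CPM.

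Several members carried part of their counts on transcripts that keep an intron, which total RNA libraries can hold and which do not encode the full protein. Retained-intron transcripts held at least 5% of the counts at 1 or both concentrations in 13 members with at least 100 transcript counts and at least 50% of the gene's counts on matched transcripts, and the mean share was higher at 25 mM in 12 of them. In 7 of the 13 the shares at 25 mM all exceeded those at 5 mM, and in none were they all below. The same minimums left 4654 genes, of which 36.1% had a higher share without overlap and 1.16% a lower one, and 86.3% a higher mean, so the members are read against a shift that was broad in these libraries.

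In Npc2 the retained-intron share was 48.0%, 38.7% and 42.4% in 5 mM replicates 1 to 3 and 60.8%, 62.2% and 60.4% in 25 mM replicates 1 to 3. Most of it was the single transcript Npc2-203, and the coding transcript Npc2-201 held 52.0% to 61.3% at 5 mM and 37.8% to 39.6% at 25 mM. The groups did not overlap (exact permutation test, two-sided, p = 0.1, the smallest that 3 against 3 allow), and coding transcripts alone gave a log2 ratio of -1.34 for Npc2 against the -0.71 of the whole gene. In Tpp1 the share was 34.0%, 39.7% and 38.2% at 5 mM and 46.9%, 42.8% and 49.5% at 25 mM. In Cln3 it was 31.5%, 26.9% and 24.2% at 5 mM and 41.2%, 40.5% and 36.3% at 25 mM. The other members without overlap were Ctsh, with means of 10.4% ± 1.10 and 18.3% ± 5.03 (SD, n = 3), Atp6v1h, with 7.21% ± 0.904 and 11.4% ± 1.01, Grn, with 3.50% ± 0.432 and 7.99% ± 2.82, and Sqstm1, with 14.8% ± 0.751 and 16.5% ± 0.863.

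Neu1 and Mcoln1 had the highest shares, with means of 76.8% and 56.9% at 5 mM and 91.1% and 67.9% at 25 mM, with overlap in Neu1 and a touch in Mcoln1 at 61.8% in both groups. For Neu1 the coding transcript Neu1-201 held only 1.26% to 31.3% of the counts, so most of its transcript counts fell on a transcript with an intron. Ctsb was the member with a lower mean share at 25 mM, 16.9% against 17.7%. Ctsd, Psap, Lamp1 and Ctsl, among the most abundant members, had shares under 1% in every replicate.

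**Figure D5:**
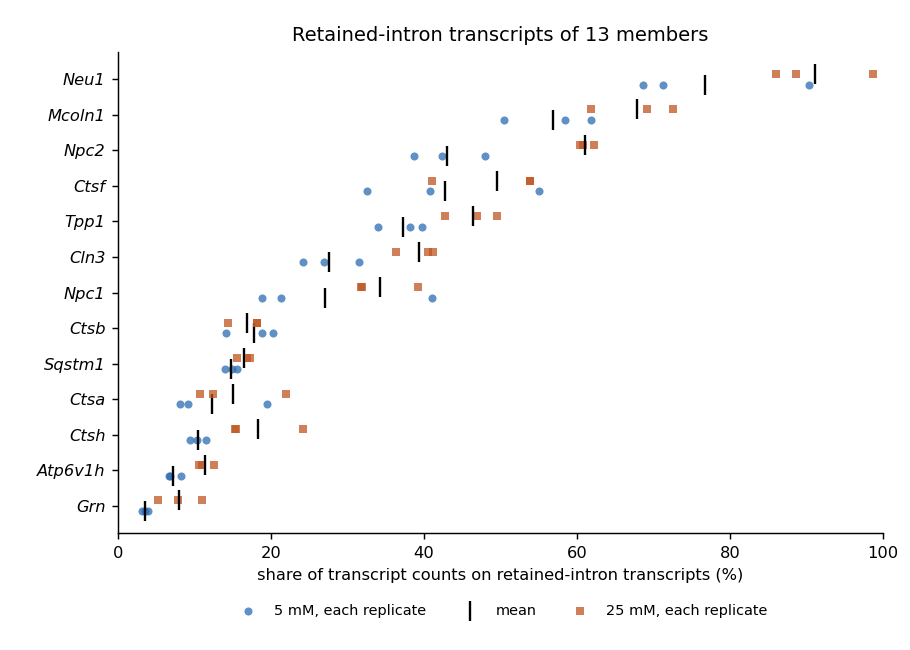
Share of transcript counts on retained-intron transcripts in each biological replicate (circles 5 mM, squares 25 mM glucose, black ticks: means) for the 13 members past the minimums. Squares lie to the right of circles without overlap in Npc2, Tpp1, Cln3, Ctsh, Atp6v1h, Grn and Sqstm1.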

How the data were processed

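Total RNA was read in 12 libraries (stranded kit for low inputs, paired-end). The authors deposited estimated counts (expected counts) per gene and per transcript, not normalized between libraries; the counting tool, its use of strand and the annotation were not given in the sources used here, and the labels name the build GRCm38. Symbols, positions and transcript types came from GENCODE M21, which gave a symbol to 48766 of 53707 identifiers (90.8%) and matched 92.0% of 146263 transcripts. No column was left out (0 unused).

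Technical replicates (batch 1 and batch 2) were summed and rounded to whole counts. The main test was the edgeR 4.0.16 quasi-likelihood test (method of edgeR 3, R 4.3.3, limma 3.58.1) with TMM factors, filterByExpr and Benjamini-Hochberg adjustment over 21061 genes, with no covariate. The biological coefficient of variation was 0.297. DESeq2 1.42.0, other scalings, filters, batches, a replicate block and samples left out were alternatives. The fit was tested on simulated data. Totals limit counting error only, since amplified reads without molecular identifiers are not independent molecules.

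Whether the replicate numbers pair the samples was checked by the correlation of their deviations from the group means. It was -0.0138, -0.449 and 0.285 for numbers 1 to 3, and -0.419 to 0.511 for unlike numbers. With so few replicates this check cannot decide on pairing, and no pairing was assumed. Transcript shares were compared by an exact permutation test. Promoter windows were those of RefSeq. Figures used Python 3.11.15, pandas 2.3.3 and matplotlib 3.10.9, and tests of shares scipy 1.17.1. The members and lists were chosen with earlier results of these data known. All 31 members are named, those with an FDR under 0.05 in each role group, or else the 2 with the lowest p, get full values, and other lists follow the same rule. Transcripts and their retained-intron shares were singled out after their values were seen.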

Additional observations from a re-analysis of the deposited data

Results flagged for a closer look

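Among 62 groups of 6 libraries of 1 condition, 1 for each member and concentration, 3 held a library far from the other libraries. At 1 in 20, chance would give about 3.1 if the 6 libraries of a group were independent, which technical replicates are not. Lamp2 had 788 CPM in the first technical replicate of 5 mM replicate 1 and 357 to 503 CPM in the other libraries at 5 mM. In the same library Atp6v0d1 had 83.1 CPM, below the 123 to 143 CPM of the other libraries at 5 mM. Gaa had 30.9 CPM in the first technical replicate of 25 mM replicate 1 and 11.8 to 18.8 CPM in the other libraries at 25 mM. No explanation was tested for these 3 values.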

How the results depend on the processing

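The median log2 fold change of the members stayed below 0 in all 17 alternatives, and 25 of the 31 members kept their direction in all of them. Of 527 member values compared, 438 kept direction and side of the threshold, 80 kept direction and passed it, and 9 turned. In batch 2 alone Ctsc was 0.04, Lamp2 0.03, Gla 0.02 and Npc1 0.15. Npc1 was 0.00 with library totals. With a replicate left out, Npc1 lay between -0.22 and 0.08 (without 25 mM replicate 1), Atp6v1h between -0.24 and 0.06 (without 5 mM replicate 1) and Tfeb between -0.99 and 0.03 (without 5 mM replicate 2). Gla was 0.44 from summed transcripts, of which the annotation matched as little as 5.37% of its gene counts.

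On all samples edgeR called 0 members and 417 genes at an FDR under 0.05. DESeq2 called 14 members and 3489 genes, the newer quasi-likelihood method 1 member, the fit without a filter 11 and 1979, batch 1 alone 14 and 3279 (median -0.93), batch 2 alone 0 genes, and the 12 libraries as separate samples with a batch term 12 and 2918. With the replicate block, 8 members and 990 genes were called, although it is not known whether the numbers pair the samples. Members lower without overlap numbered 9 with library totals (11.3% of all genes), 4 in batch 2 (7.91%) and 0 over the 12 libraries (1.45%). Leaving out a replicate gave 0 to 18 members, 0 to 5845 genes, medians of -0.94 to -0.55 and 14 to 25 members without overlap. The 18 and 5845 came without 5 mM replicate 1, where fewer samples also make overlap less likely (32.0% of all genes). The share of called genes that were higher was 74.1% with edgeR, 42.4% with DESeq2, 83.7% with library totals and 40.9% with the block. The cause of these changes was not tested.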
